A study of Mus musculus with 6 samples.

Results

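Reactive gliosis is the response of the retina's supporting glia to injury, and 10 genes that are widely used to follow it were described here in single cells of the mouse retina: Gfap, Vim, Nes, Osmr, Stat3, Socs3, Lcn2, Serpina3n, Timp1 and Cp. They were taken by symbol from the 31053 genes listed in each library, and each symbol matched 1 gene identifier. Müller glia span the whole neural retina and astrocytes lie on its inner surface beside the vessels. In injury both cell types build up intermediate filaments, made of proteins such as GFAP, vimentin and nestin. A well studied route to this state runs from cytokines of the interleukin-6 family, through the shared receptor subunit gp130, to the transcription factor STAT3, whose target SOCS3 turns the signal down again.

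The 6 libraries came from mice with oxygen-induced retinopathy (OIR, n = 3) and from control mice (Ctrl, n = 3), each made from the retinas of a pair of mice taken on postnatal day 17 (P17). OIR mice had breathed 75% oxygen from P7 to P12, which injures retinal vessels and leads to vessel loss. They then spent 5 days in normal air, when the poorly supplied retina becomes hypoxic. Ctrl mice were kept in normal air throughout. No strain, genotype or sex was given for either group. Libraries held 15788524 to 42606878 unique molecular identifiers (UMIs, 1 for each captured RNA molecule), and 38569 cells passed the study's limits. The labels called the material retinal endothelial cells, but only 198 of these cells were vascular endothelial cell (VEC)-like by their markers and 25318 were rod-like. Xist was at 1798 and 1998 CPM (UMIs scaled to a common total for each library) in Ctrl replicates 2 and 3 and at no more than 0.493 CPM in the other 4 libraries, where Y-linked genes were at 213 to 262 CPM, so the OIR mice and Ctrl replicate 1 read as male and the other Ctrl libraries as female. Since every OIR library read as male, sex and treatment cannot be told apart among replicates 2 and 3. In a fit with a term for sex, the change in OIR thus rests on Ctrl replicate 1 as its only Ctrl library. Both replicate 1 libraries were the deepest of their group.

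Cells were grouped without the 10 genes, and 3925 of them were Müller-like, with all 9 Müller markers detected. There were 1034, 597 and 664 Müller-like cells in OIR replicates 1, 2 and 3 and 1013, 329 and 288 in the Ctrl replicates. They lay in 2 clusters, a deeper one of 2205 cells and a shallower one of 1720 cells. The shallower cluster gave 35.5%, 59.8% and 61.0% of the Müller-like cells in the OIR libraries and 33.2%, 44.4% and 37.8% in the Ctrl libraries. The tests were therefore repeated in each cluster alone. UMIs of all Müller-like cells of a library were summed, and levels are given in CPM of these sums. Fewer molecules in each cell and fewer cells with the molecule cannot be told apart in such sums. To be called higher or lower, a gene had to move by 0.25 or more on the log2 scale and to have an adjusted p under 0.05 in the edgeR quasi-likelihood test over all genes.

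In Müller-like cells the clearest change was in nestin. Nes was 4.84-fold higher in OIR by the ratio of mean CPM and was the 1 gene of the 10 that was called. Vim and Osmr were also higher in every OIR library than in every Ctrl library, but neither passed the adjusted threshold in the main fit. Of the 10 genes, 8 had enough UMIs to be tested, and edgeR called 1 higher and 0 lower. At an unadjusted p under 0.05 there were 4 higher and 0 lower, and DESeq2 called 3 higher and 0 lower. Over all 11631 genes tested, 1.65% were called higher and 1.16% lower. Of these genes, 1807 had an unadjusted edgeR p under 0.05 in either direction, and DESeq2 called 227 higher and 192 lower. All 8 tested genes had a positive log2 fold change, with a median of 0.91 against -0.01 over all genes tested. The 10 genes were chosen with earlier results of these data known, so their shared sign is a description and not a test. Of the genes left out by the count filter, Lcn2 had a lower mean in OIR, at 6.30 against 7.31 CPM. Timp1 had a higher one, at 5.80 against 0.414 CPM. CPM of all OIR libraries lay above all Ctrl libraries for 3 of the 10 genes, as they did for 14.0% of all genes tested.

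**Figure D1:**
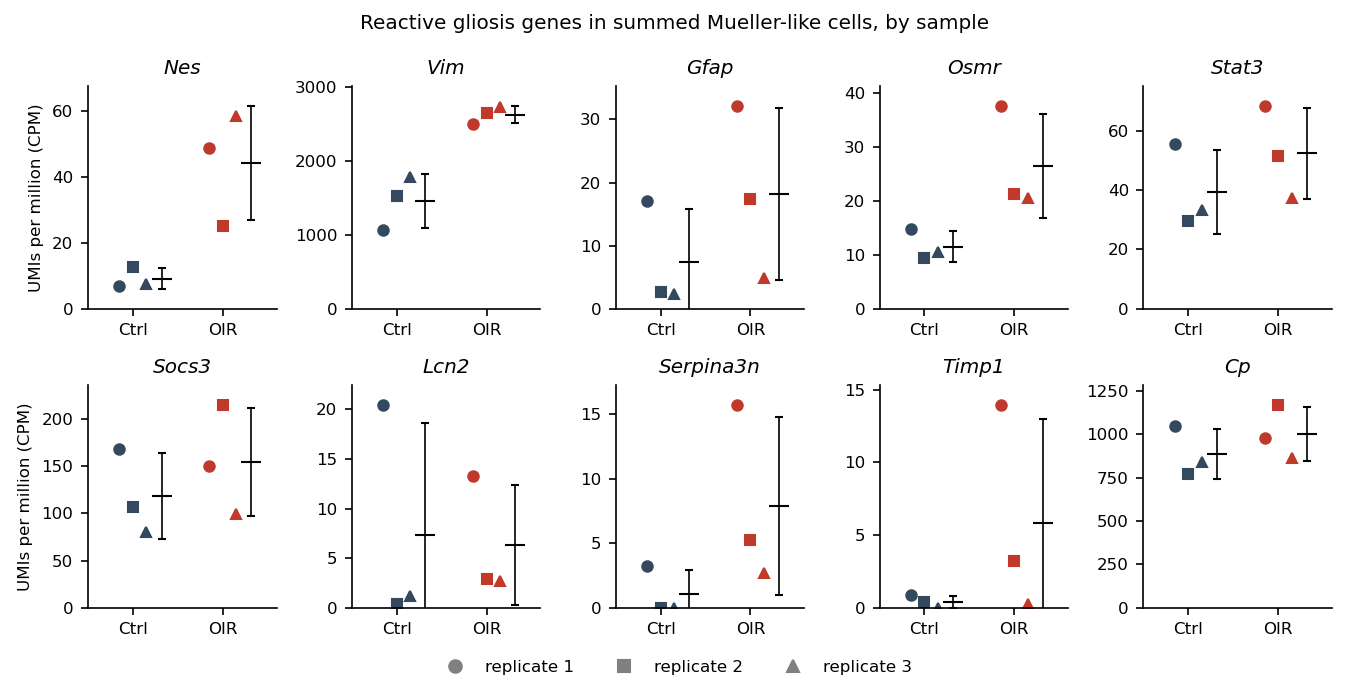
CPM of the 10 genes in summed Müller-like cells (y axis, linear from 0) in the Ctrl and OIR libraries (x axis). Each symbol is 1 library, with the replicate number as its shape, and the black mark and bar are the group mean and SD (n = 3, cut at 0). Nes, Vim and Osmr have no overlap between groups, while for Gfap and Lcn2 Ctrl replicate 1, at 17.1 and 20.4 CPM, stands above the other Ctrl libraries.

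Nes encodes nestin, an intermediate filament protein of neural progenitors that mature glia can take up again after injury. It lies on chr3:87971078-87980451 (GRCm38, plus strand). Its level was 48.9, 24.98 and 58.6 CPM in OIR replicates 1, 2 and 3 and 7.02, 12.8 and 7.59 CPM in the Ctrl replicates. The lowest OIR library lay above the highest Ctrl library. These levels rest on 390, 86 and 194 UMIs in OIR and 41, 33 and 13 UMIs in Ctrl. The 9 Müller markers together moved the other way, at 15537 to 18659 CPM in OIR and 21281 to 22507 CPM in Ctrl. The log2 fold change was 2.26 (SE 0.35, edgeR adjusted p = 0.0112). Without Ctrl replicate 3 the change was 2.20 and the edgeR adjusted p was 0.0506, so that the call was lost. Every other alternative kept it, among them each Müller-like cluster alone, with log2 fold changes of 2.31 in the deeper and 2.07 in the shallower cluster (edgeR). The 5 cells with most Nes held between 7.69% and 25.6% of its UMIs in the OIR libraries, so its UMIs came from many cells.

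Vim encodes vimentin, an intermediate filament protein that Müller glia carry at rest (chr2:13573927-13582826, plus strand). It was the most abundant of the 10 genes in these cells, at 2492, 2642 and 2721 CPM in OIR and 1065, 1523 and 1773 CPM in Ctrl. The OIR libraries lay close together and above all Ctrl libraries. Its log2 fold change of 0.78 (SE 0.20) had an edgeR adjusted p of 0.0770. With DESeq2 the change was the same size, at 0.78, and was called (DESeq2 adjusted p = 0.0021). In the deeper cluster alone it was 0.67 and not called (edgeR adjusted p = 0.220), and in the shallower cluster alone 1.27 and called (edgeR adjusted p = 0.0008).

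Gfap encodes glial fibrillary acidic protein, the filament that astrocytes carry at rest and that is most often stained to show reactive Müller glia (chr11:102887336-102900912, minus strand). It was at 32.1, 17.4 and 4.83 CPM in OIR and 17.1, 2.71 and 2.34 CPM in Ctrl. The groups overlapped, because Ctrl replicate 1 lay near OIR replicate 2 and above OIR replicate 3. The log2 fold change was 1.03 (SE 0.68, edgeR adjusted p = 0.534). It was 2.86 without Ctrl replicate 1 (edgeR adjusted p = 0.0947) and 0.24 without OIR replicate 1 (edgeR adjusted p = 0.928). Of 18 alternatives, 1 called it. In Ctrl replicate 1, the 5 cells with most Gfap held 63.0% of its 100 UMIs, and in OIR replicate 1 they held 25% of 256 UMIs. Of the 10 astrocyte markers, 8 were detected in the Müller-like sums, at 1295 to 1617 CPM together in OIR and 1765 to 2142 CPM in Ctrl, and Gjb6 and Itih3 were at 0. Within Ctrl they were highest in replicate 1, as Gfap was, and their part in its level was not tested.

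The sequences around the start of 4 genes are printed for Nes and Vim, which were higher in all OIR libraries, and for Socs3 and Gfap, which hold the motif that STAT factors bind, TTCNNNGAA. The windows run from 250 bases before to 50 bases after the gene start in RefSeq (GRCm38.p6) and lie at chr3:87970843-87971142 on the plus strand for Nes, chr2:13574061-13574360 on the plus strand for Vim, chr11:102897151-102897450 on the minus strand for Gfap and chr11:117969317-117969616 on the minus strand for Socs3. Letters are 5′ to 3′ along the gene, with matches to TTCNNNGAA, which reads the same on either strand, in capitals.
Nes: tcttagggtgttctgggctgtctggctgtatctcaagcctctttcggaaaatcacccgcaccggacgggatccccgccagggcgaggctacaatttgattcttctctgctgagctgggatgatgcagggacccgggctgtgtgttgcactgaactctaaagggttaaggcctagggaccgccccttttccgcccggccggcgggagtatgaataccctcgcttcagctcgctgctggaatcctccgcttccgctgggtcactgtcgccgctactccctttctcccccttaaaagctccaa
Vim: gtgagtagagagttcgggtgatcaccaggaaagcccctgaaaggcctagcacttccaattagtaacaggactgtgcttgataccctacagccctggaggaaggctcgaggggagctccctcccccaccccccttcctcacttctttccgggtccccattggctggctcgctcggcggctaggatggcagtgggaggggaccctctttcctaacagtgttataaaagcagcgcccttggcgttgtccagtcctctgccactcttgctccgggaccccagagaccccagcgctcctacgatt
Gfap: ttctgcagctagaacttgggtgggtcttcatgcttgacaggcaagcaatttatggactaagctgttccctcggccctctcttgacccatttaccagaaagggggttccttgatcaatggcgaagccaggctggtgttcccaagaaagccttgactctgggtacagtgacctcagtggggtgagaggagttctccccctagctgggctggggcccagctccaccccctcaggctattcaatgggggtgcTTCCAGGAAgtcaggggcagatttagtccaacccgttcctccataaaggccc
Socs3: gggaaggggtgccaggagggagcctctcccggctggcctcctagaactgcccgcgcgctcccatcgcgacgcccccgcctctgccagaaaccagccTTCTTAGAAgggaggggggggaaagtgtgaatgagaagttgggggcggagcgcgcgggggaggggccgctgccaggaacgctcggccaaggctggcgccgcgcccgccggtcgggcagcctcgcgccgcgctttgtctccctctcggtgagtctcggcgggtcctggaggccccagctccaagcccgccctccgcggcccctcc

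In Gfap the match began 2 bases before the RefSeq gene start and in Socs3 154 bases before it. The gene coordinates printed in this text come from the GENCODE annotation instead. The windows of Gfap, Vim and Socs3 lie wholly inside those coordinates, so their RefSeq starts are not the outermost starts of these genes. The windows of the other 8 genes held none, which says only that these letters are not in these 300 bases. Of all 32851 RefSeq windows of this length 8.3% held the motif, against 2 of the 10 genes. A match is a description of the sequence and not a site that was shown to be bound.

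Osmr encodes the oncostatin M receptor, which pairs with gp130 to pass an interleukin-6 family signal (chr15:6813577-6874969, minus strand). It was at 37.5, 21.2 and 20.5 CPM in the OIR Müller-like sums and 14.7, 9.30 and 10.5 CPM in Ctrl. All OIR libraries lay above all Ctrl libraries. Its log2 fold change was 1.13 (SE 0.30, edgeR adjusted p = 0.0793). It was 1.13 and called with DESeq2 (DESeq2 adjusted p = 0.0254), and 1.23 and called in the deeper cluster alone (edgeR adjusted p = 0.0449). In the shallower cluster it had too few UMIs to be tested, and in Ctrl replicate 3 it rests on 18 UMIs.

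The transcription factor gene Stat3 (chr11:100885098-100939540, minus strand) was at 68.3, 51.4 and 37.4 CPM in OIR and 55.4, 29.4 and 33.3 CPM in Ctrl. Within each replicate number the OIR library was the higher, but the groups overlapped, with a log2 fold change of 0.33 (SE 0.28, edgeR adjusted p = 0.637). Socs3, the feedback inhibitor of the pathway (chr11:117966079-117970047, minus strand), was at 150.3, 214 and 99.9 CPM in OIR and 169, 107 and 80.0 CPM in Ctrl. Ctrl replicate 1 lay above both OIR replicates 1 and 3. The log2 fold change of Socs3 was 0.30 (SE 0.29, edgeR adjusted p = 0.692). With a term for sex, where the change rests on Ctrl replicate 1 alone of the Ctrl libraries, the sign of Stat3 turned to -0.10. That of Socs3 turned to -0.18.

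Of the secreted proteins, Serpina3n, a serine protease inhibitor of reactive astrocytes (chr12:104406729-104414329, plus strand), was at 15.7, 5.23 and 2.72 CPM in OIR and 3.25 CPM in Ctrl replicate 1. In Ctrl replicates 2 and 3 it had 0 UMIs, which allows up to 1.16 and 1.75 CPM when 3 UMIs are taken as the limit. OIR replicate 3, with 9 UMIs, lay below Ctrl replicate 1, with 19 UMIs, so the groups overlapped. Its log2 fold change of 2.30 (SE 0.85) had an edgeR adjusted p of 0.216. It was called in 2 of 15 alternatives, 1 of them with no filter on low counts, at 2.32 (edgeR adjusted p = 0.0166). Without OIR replicate 1 it was 1.17 (edgeR adjusted p = 0.626).

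Lcn2 and Timp1 had too few UMIs to be tested in Müller-like cells. Lcn2 encodes lipocalin 2, which binds the iron carriers of bacteria and is secreted by reactive astrocytes (chr2:32384633-32388252, minus strand). It was at 13.3, 2.90 and 2.72 CPM in OIR and 20.4, 0.387 and 1.17 CPM in Ctrl, so that the replicate 1 libraries of both groups were high and the other 4 low. In these replicate 1 libraries, 5 cells held 69.8% of the 106 UMIs in OIR and 75.6% of the 119 UMIs in Ctrl. Timp1, an inhibitor of matrix metalloproteinases (chrX:20870166-20874735, plus strand), had 111, 11 and 1 UMIs in OIR and 5, 1 and 0 in Ctrl. OIR replicate 1 held most of them, at 13.9 CPM, and 5 of its cells held 44.1% of its UMIs. With no filter on low counts, Timp1 had a log2 fold change of 3.44 and was called (edgeR adjusted p = 0.0061).

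Cp, for ceruloplasmin, a copper protein that oxidises iron so that it can leave cells (chr3:19957054-20009145, plus strand), was abundant in Müller-like cells of both groups. It was at 979, 1165 and 860 CPM in OIR and 1048, 773 and 837 CPM in Ctrl. The ranges were close to each other, with a log2 fold change of 0.11 (SE 0.17, edgeR adjusted p = 0.827). With the term for sex, and so against Ctrl replicate 1 alone, its sign turned to -0.12.

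**Figure D2:**
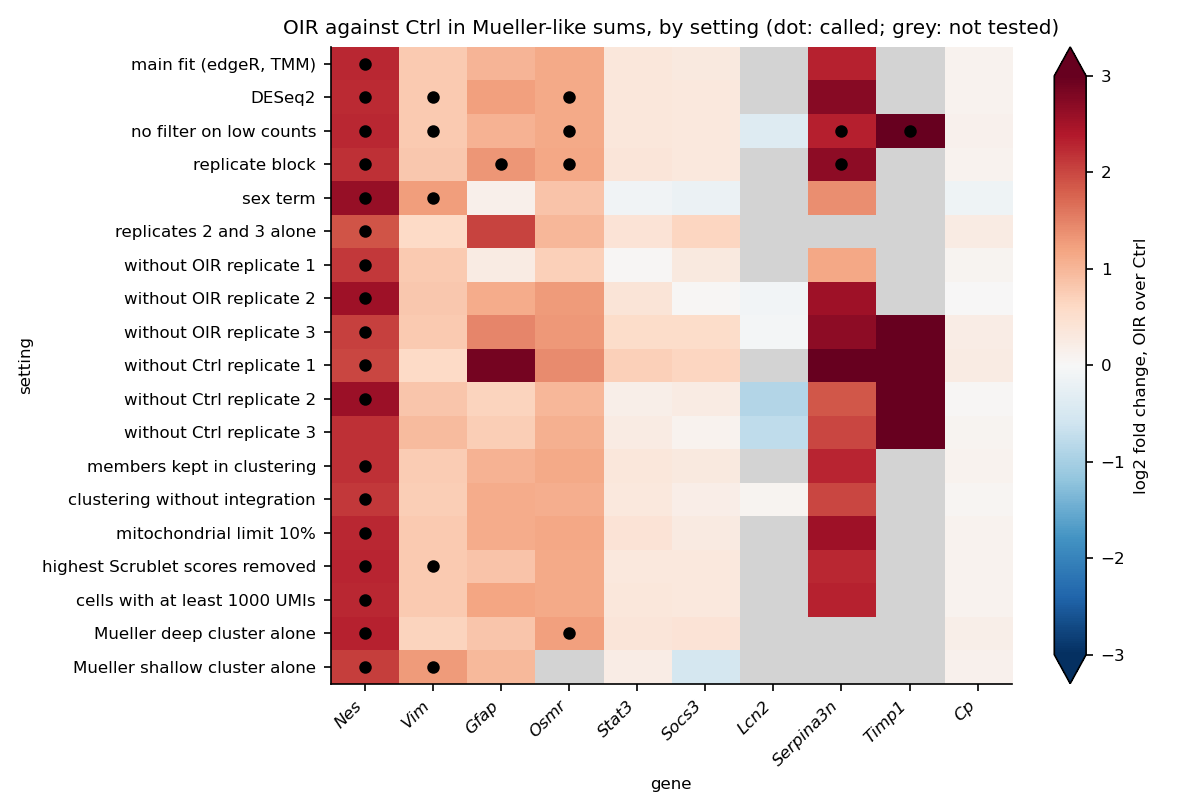
Log2 fold change of OIR over Ctrl in Müller-like sums (colour, cut at -3 and 3) for each gene (x axis) and each setting of the analysis (y axis). A black dot marks a call and grey a gene that was not tested. Nes was called in all settings except the one without Ctrl replicate 3, Vim in 5 of the 18 alternatives and Osmr in 4 of the 17 that tested it.

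Nes and Vim separated the groups at equal depth too. Each Müller-like cell was thinned to 1000 UMIs, which left out 57, 82 and 104 cells of the OIR libraries and 49, 24 and 25 of the Ctrl libraries. A UMI of Nes was then found in 3.79%, 2.14% and 5.36% of OIR cells and 1.04%, 1.64% and 0.760% of Ctrl cells. For Vim the shares were 78.5%, 82.9% and 83.4% in OIR and 61.5%, 69.2% and 71.9% in Ctrl. Neither gene overlapped between groups. Nor did Timp1, at 0.179% to 0.512% in OIR and 0% to 0.104% in Ctrl, where the lowest OIR value was 1 cell. The two-sided exact permutation test over 3 against 3 libraries cannot go below p = 0.1, the value of these 3 genes. Only the 10 genes were counted after thinning, so no share over all genes was taken at this depth. By CPM, all OIR libraries lay above all Ctrl libraries for 14.0% of genes tested in Müller-like cells and 23.9% in rod-like cells. Osmr overlapped, at 1.07% to 3.07% in OIR and 1.14% to 1.97% in Ctrl. Without thinning, when deeper cells count for more, Nes was found in 9.88% to 21.5% of OIR cells and 3.85% to 7.90% of Ctrl cells, and Vim in 90.7% to 95.6% and 89.7% to 92.7%, so that Vim no longer separated the groups.

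Gfap was found in only 0.536% to 2.87% of thinned Müller-like cells in OIR and 0.328% to 1.35% in Ctrl. Rod-like cells, which should lack it, gave 0.0574% to 0.186% in OIR and at most 0.0486% in Ctrl at the same depth. Gfap thus overlapped between groups in Müller-like cells. In rod-like cells it did not, but the gap was narrow and rests on a few cells. It lay between 0.0574% of 3485 cells in OIR replicate 2 and 0.0486% of 4116 cells in Ctrl replicate 2. Without thinning, when deeper cells count for more, the gap was wider, at 0.151% to 0.669% in OIR and 0.0329% to 0.0462% in Ctrl. CPM of Gfap and Nes did not overlap there either, as for 23.9% of genes tested in rod-like cells. These CPM rest on 46 UMIs in OIR and 5 in Ctrl for Gfap and on 32 and 4 for Nes. For Nes the rod-like cells gave at most 0.149% and for Lcn2 1.503% to 2.31% in OIR, above the 0.179% to 0.409% of the Müller-like cells. Before thinning, the median depth of a library was 2187 to 7969 UMIs in Müller-like cells and 1403 to 3116 UMIs in rod-like cells.

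**Figure D3:**
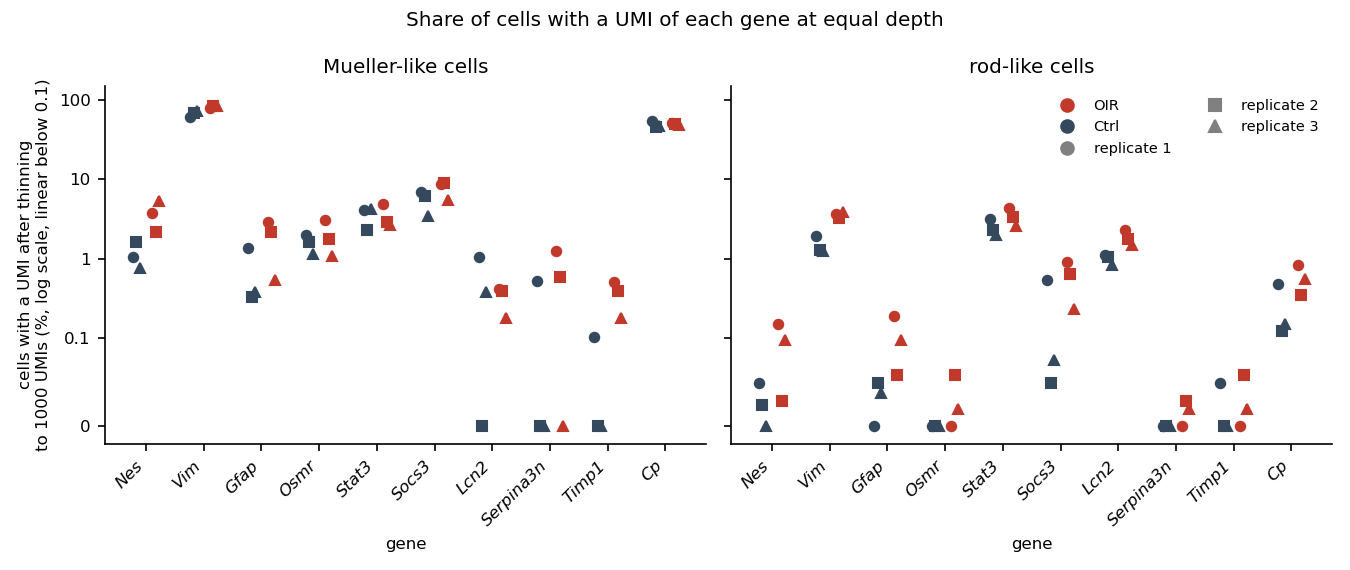
Share of cells with at least 1 UMI of each gene after thinning every cell to 1000 UMIs (y axis in percent, logarithmic above 0.1 and linear below it), for Müller-like cells on the left and rod-like cells on the right. Each symbol is 1 library. Vim, Nes and Timp1 separate the groups in Müller-like cells, Timp1 by a few cells. Vim, Lcn2 and Gfap do in rod-like cells, Gfap by a few cells.

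Gfap was found together with Lcn2 and Serpina3n in Ctrl replicate 1. After thinning, 13 of its Müller-like cells had a Gfap UMI, and 30.8% of these also had Lcn2 and 23.1% Serpina3n, against 0.631% and 0.210% of the 951 cells without Gfap. In OIR replicate 1, with 28 Gfap cells, none had Lcn2 and 3.57% had Serpina3n. These shares rest on a few cells in each library and were not tested.

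Across the retina the 10 genes marked quite different cells, and 4 of them, Gfap, Serpina3n, Lcn2 and Cp, had their highest mean CPM in astrocyte-like cells. Only 57 cells were astrocyte-like, 17, 11 and 3 in the OIR libraries and 22, 3 and 1 in the Ctrl libraries, so these levels are values with no test. Their 10 leading genes were Gfap, Optc, Crhbp, S100b, Pdgfra, Fbln1, Igfbp2, 1500015O10Rik, Cldn10 and Penk. Only 1 of these, S100b, was among the astrocyte markers, and Gfap was not used for the name. Of the 10 astrocyte markers 8 were detected, and the Müller score of these cells, 2.83, was nearly as high as their astrocyte score, 2.94. Gfap was at 1113, 4891 and 561 CPM in OIR and 1735, 1114 and 938 CPM in Ctrl astrocyte-like cells, against at most 32.1 CPM in Müller-like cells. These cells gave 47.8%, 91.9% and 49.1% of all Gfap UMIs in the OIR libraries and 83.0%, 80.0% and 70.8% in the Ctrl libraries. OIR replicate 2 held 826 of their 1129 Gfap UMIs in OIR.

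Lcn2 and Serpina3n were unevenly spread over the astrocyte-like cells of different libraries. Lcn2 was at 297, 758 and 21.6 CPM in OIR and 158, 0 and 0 CPM in Ctrl, and Serpina3n at 197, 645 and 0 CPM in OIR and 46.0, 0 and 0 CPM in Ctrl. The values of 0 came from libraries with 1 to 3 such cells. In OIR replicate 2, 5 of its 11 cells held 93.0% of the Lcn2 and all of the Serpina3n UMIs.

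**Figure D4:**
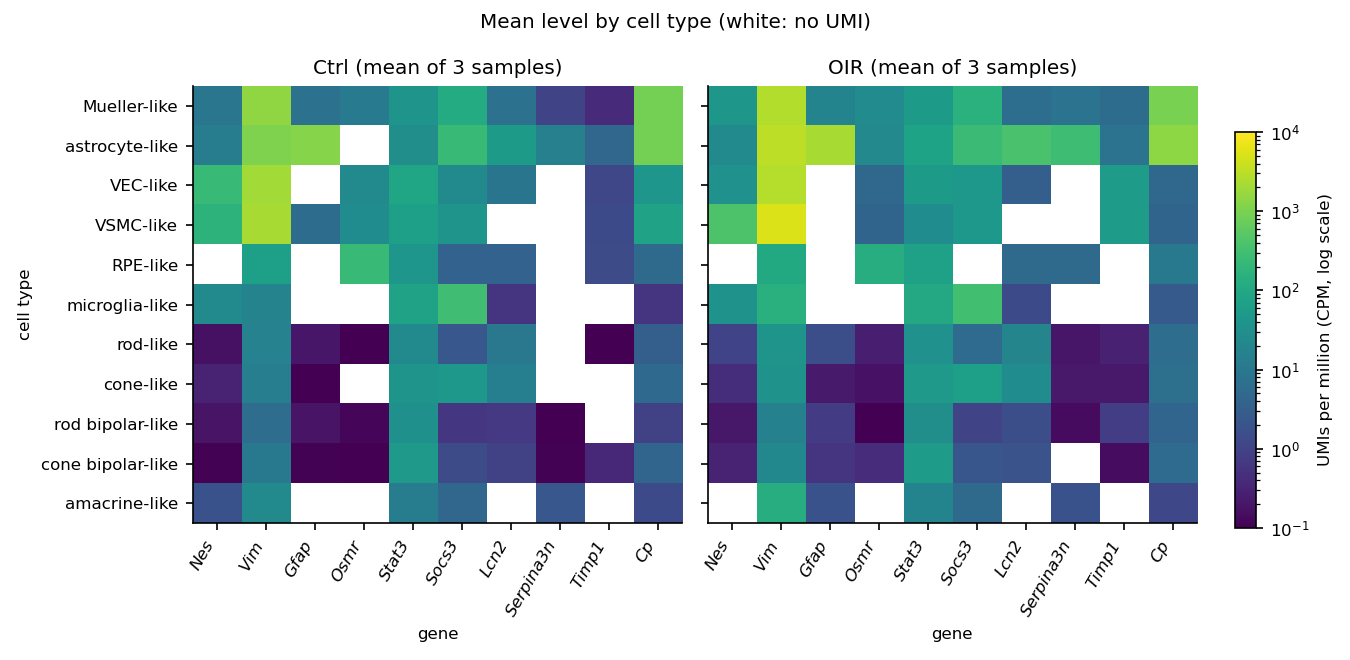
Mean CPM over the 3 libraries of a group (colour, logarithmic) of each gene (x axis) in each cell type (y axis), for Ctrl on the left and OIR on the right. White marks a type in which no UMI was found. Stat3 and Vim were found in all types, Gfap and Serpina3n mainly in the glia, and Socs3 in microglia-like, glial and cone-like cells.

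The vascular sums of some OIR libraries went against their names. In the 6 VSMC-like cells of OIR replicate 3, VSMC markers were at 1022 CPM, against 22632 CPM or more in the other libraries, and fibroblast markers at 77510 CPM. In the 3 VEC-like cells of the same library VEC markers were at 1168 CPM, against 8181 CPM or more elsewhere, and in the 3 VEC-like cells of OIR replicate 2 lens markers were at 5086 CPM.

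Vim was high in every glial and vascular type, at 624 to 8560 CPM in VSMC-like, 701 to 6139 in VEC-like, 724 to 5620 in astrocyte-like and 1065 to 2721 in Müller-like cells. These ranges overlapped, and the types other than Müller-like were too rare in some library to be tested. The lowest VEC-like value was that of OIR replicate 3, and without it the range began at 1389 CPM. Nes was highest in the vascular types, with 149 to 670 CPM in VSMC-like and 0 to 382 CPM in VEC-like cells, ranges that were the same without OIR replicate 3. Müller-like cells nevertheless gave 79.3%, 68.3% and 81.5% of all Nes UMIs in the OIR libraries and 17.2%, 45.2% and 28.9% in the Ctrl libraries. Ctrl replicate 1 held 147 of the 198 VEC-like and 63 of the 86 VSMC-like cells.

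The signalling genes had other main sources. Socs3 was highest in microglia-like cells, at 221 to 444 CPM, followed by astrocyte-like and Müller-like cells and then by cone-like cells, at 31.5 to 73.4 CPM. The range of microglia-like cells lay above the 80.0 to 214 CPM of Müller-like cells, which in turn lay above that of cone-like cells. In cone-like cells Socs3 was higher in all OIR libraries, at 73.4, 62.5 and 65.0 CPM, than in Ctrl, at 51.4, 31.5 and 56.2 CPM, as 11.3% of genes were, with a log2 fold change of 0.50 (SE 0.20, edgeR adjusted p = 0.299). Osmr was highest in retinal pigment epithelium (RPE)-like cells, at 170, 89.6 and 125 CPM in OIR and 126, 241.5 and 337 CPM in Ctrl. The groups overlapped in these 234 cells, where Osmr had a log2 fold change of -0.87 (SE 0.41, edgeR adjusted p = 0.905) and 0% of genes were called higher and 0.0591% lower. Stat3 had its highest mean, 90.5 CPM, in microglia-like cells and was found in glia, neurons and vessels alike. Cp was confined largely to glia, with 92.9% of its UMIs in Ctrl and 93.6% in OIR in Müller-like cells. Timp1 had its highest mean CPM over the 6 libraries in VSMC-like and VEC-like cells, at 29.6 and 29.5, against 3.11 in Müller-like cells. In OIR it was at 24.5, 30.5 and 119 CPM in VSMC-like and 77.6, 96.0 and 0 CPM in VEC-like cells. In Ctrl it was at most 3.91 and 3.55 CPM there. These untested levels rest on few UMIs, in OIR 2, 1 and 5 in VSMC-like and 16, 1 and 0 in VEC-like cells. The 5 were in the cells with high fibroblast markers.

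Outside Müller-like cells 7 types had at least 10 cells in every library, and in these 19 pairs of a gene and a type could be tested. Vim was called higher in 3 of them and none of the 10 genes was called lower, where 0.985% of all genes were called lower in rod-like, 0.477% in cone-like, 0.351% in cone bipolar-like, 1.15% in rod bipolar-like, 0.0295% in microglia-like and 0% in amacrine-like cells. At an unadjusted edgeR p under 0.05 there was 1 lower, Osmr in RPE-like cells, and DESeq2 called 0 lower. Over all 1693 genes tested in RPE-like cells, 89 had an unadjusted edgeR p under 0.05 in either direction, and DESeq2 called 1 lower. In rod-like cells Vim was at 39.5, 35.0 and 42.8 CPM in OIR and 22.8, 15.4 and 12.3 CPM in Ctrl. The groups did not overlap, as for the 23.9% of genes whose OIR levels were all the higher in these cells. The log2 fold change was 1.09 (SE 0.21, edgeR adjusted p = 0.0346), in a type where 1.59% of all genes were called higher.

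In cone-like cells Vim was at 20.3, 55.8 and 30.8 CPM in OIR and 14.8, 14.6 and 12.8 CPM in Ctrl, with a log2 fold change of 1.20 (SE 0.29, edgeR adjusted p = 0.0493). All OIR libraries were above all Ctrl libraries, and OIR replicate 2 was the highest. Of all genes, 0.805% were called higher there. In amacrine-like cells it was at 100.3, 103.4 and 185 CPM in OIR and 25.1, 27.5 and 21.4 CPM in Ctrl, with a log2 fold change of 2.43 (SE 0.39, edgeR adjusted p = 0.0368), where 0.0530% of genes were called higher. Here too the groups did not overlap, as for 4.82% of genes. These amacrine levels rest on 12 to 34 UMIs of a library in OIR and 4 to 31 in Ctrl. Only the OIR levels met the count filter, so Vim would not have been tested here at its Ctrl levels. The amacrine call thus rests in part on how genes were let into the test. In the same sums the 7 amacrine markers together were lower in all OIR libraries, at 2102 to 3760 CPM, than in Ctrl, at 4241 to 4387 CPM. Rod markers there overlapped between groups, at 3806 to 12761 CPM in OIR and 3202 to 4949 CPM in Ctrl. The part of this make-up in the Vim level was not tested. The 3 calls did not hold with a term for sex, which sets the OIR libraries against Ctrl replicate 1 alone. In rod-like cells the call was also lost without any 1 library other than Ctrl replicate 1, at edgeR adjusted p = 0.0580 to 0.189. In cone-like cells it was lost without OIR replicate 2 or 3 or Ctrl replicate 2 or 3, at edgeR adjusted p = 0.0822 to 0.324, and in amacrine-like cells without OIR replicate 3 or any Ctrl replicate, at 0.115 to 0.525. The amacrine call was also lost without the highest Scrublet doublet scores, with a mitochondrial limit of 10% and with replicates 2 and 3 alone. Of 16 alternatives, 8 kept the call in rod-like, 10 in cone-like and 7 in amacrine-like cells.

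**Figure D5:**
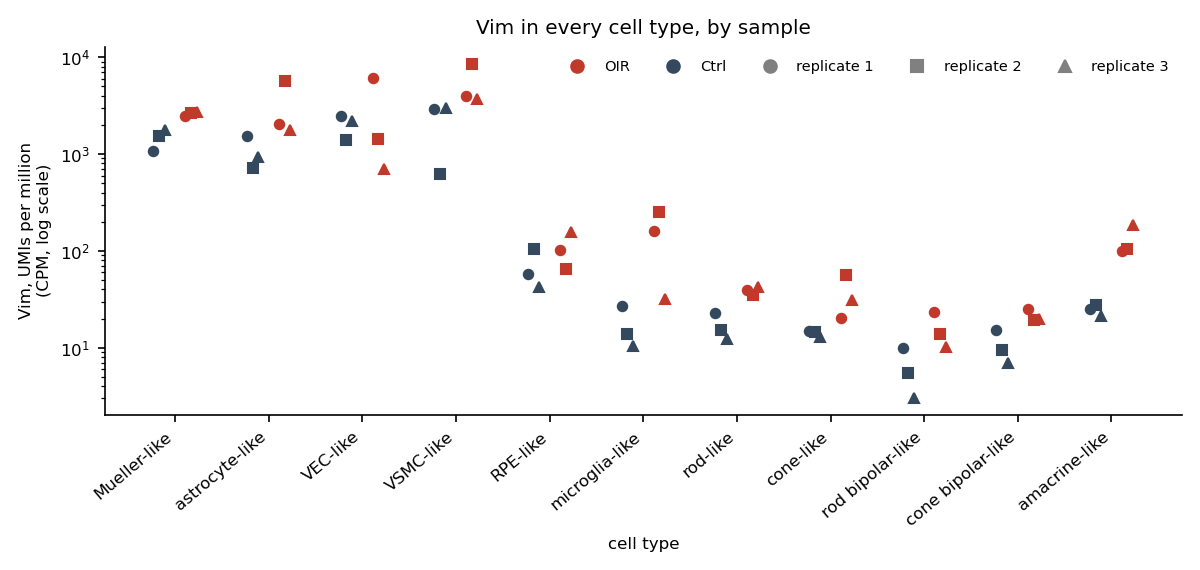
Vim CPM (y axis, logarithmic) in each cell type (x axis) and library, with OIR in red and Ctrl in blue and the replicate number as the shape. Glial and vascular types lie mostly above 1000 CPM and the neurons below 200 CPM. All OIR libraries lie above all Ctrl libraries in every type except RPE-like and VEC-like cells. Of all genes tested, 4.82% in amacrine-like to 23.9% in rod-like cells did so too. No such share was taken for astrocyte-like and VSMC-like sums, which hold few cells in some libraries. The VSMC-like sum of OIR replicate 3 is high in fibroblast markers.

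UMIs of Müller markers were counted in the neurons too. The 9 markers together reached in rod-like cells 1.19% to 1.495% of their Müller-like level in the OIR libraries and 0.764% to 1.122% in Ctrl. Vim in rod-like cells was at 1.32% to 1.59% of its Müller-like level in OIR and 0.691% to 2.14% in Ctrl. In amacrine-like cells the markers were at 2.87% to 4.28% in OIR and 1.92% to 2.50% in Ctrl, and Vim at 3.91% to 6.81% and 1.21% to 2.36%. In cone-like cells the markers were at 2.23% to 2.44% and 1.49% to 1.76%, and Vim at 0.815% to 2.11% and 0.724% to 1.39%. On this scale the markers were higher in these 3 types in all OIR libraries, but its base, the Müller-like marker level, was itself lower in OIR. In CPM the markers of the 3 types overlapped between groups. They were at 222 to 236 in OIR and 164 to 239 in Ctrl for rod-like, 346 to 455 and 335 to 374 for cone-like, and 458 to 665 and 433 to 532 for amacrine-like cells. They overlapped in cone bipolar-like cells too, at 228 to 253 CPM in OIR and 224 to 374 CPM in Ctrl. In rod bipolar-like cells they did not, at 176 to 235 CPM in OIR and 113 to 172 CPM in Ctrl. There 11.5% of single genes were higher in all OIR libraries. As a share of its Müller-like level, Vim was higher in all OIR libraries in amacrine-like cells alone of the 3 types. The part of the markers in the Vim calls was not tested.

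Lcn2 differed from Vim in that its CPM was above that of Müller-like cells in rod-like cells of 5 libraries and in cone-like cells of all 6. Rod-like cells gave 39.7%, 47.1% and 81.2% of its UMIs in the OIR libraries and 17.3%, 82.6% and 86.9% in the Ctrl libraries. Its level there was 21.9, 17.9 and 17.4 CPM in OIR and 13.7, 9.29 and 7.58 CPM in Ctrl. All OIR libraries lay above all Ctrl libraries, with a log2 fold change of 0.78 (SE 0.23, edgeR adjusted p = 0.111). With the replicate number as a block it was 0.78 and called (edgeR adjusted p = 0.0117). That fit called 631 of 11573 genes higher, against 184 without the block. But in rod-like cells OIR replicate 2 deviated with Ctrl replicate 3 (r = 0.211) nearly as with Ctrl replicate 2 (r = 0.249). The numbers thus did not clearly pair these libraries. In cone-like cells Lcn2 was at 25.5, 33.6 and 22.8 CPM in OIR and 21.2, 8.76 and 12.8 CPM in Ctrl, with a log2 fold change of 0.70 (SE 0.27, edgeR adjusted p = 0.299). The block paired the libraries in cone bipolar-like cells, where Vim, at 0.77 without it (edgeR adjusted p = 0.261), was at 0.86 and called (edgeR adjusted p = 0.0292). Over all genes of that type the block called 257 of 10262 higher, against 50 without it. All OIR libraries of that type, at 25.1, 19.3 and 19.9 CPM, were above all Ctrl libraries, at 15.4, 9.43 and 7.04 CPM, as for 11.0% of genes. In rod bipolar-like cells, where 11.5% of genes were higher in all OIR libraries, Vim was at 23.4, 13.8 and 10.2 CPM in OIR and 9.91, 5.44 and 3.04 CPM in Ctrl, with a log2 fold change of 1.14 (SE 0.39, edgeR adjusted p = 0.170). Amacrine-like cells held 0 Lcn2 UMIs in every library.

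Microglia-like cells are the immune cells of the retina, and 2 of the 10 genes, Stat3 and Socs3, could be tested there. Stat3 was at 109, 88.9 and 121 CPM in OIR and 59.5, 69.9 and 94.9 CPM in Ctrl, with a log2 fold change of 0.60 (SE 0.28, edgeR adjusted p = 0.527). The groups overlapped. Vim, which the filter removed, was at 161, 249.9 and 32.2 CPM in OIR and 27.2, 14.0 and 10.5 CPM in Ctrl, and with no filter it was called with a log2 fold change of 2.81 (edgeR adjusted p = 3.42e-11), in a fit that called 117 of 14441 genes higher. These Vim levels rest on 177 UMIs in the OIR libraries together and 20 in the Ctrl libraries together, from 17 to 81 cells of a library. The OIR libraries spread widely, with a mean of 148 CPM and an SD of 109 CPM. The lowest, OIR replicate 3 at 32.2 CPM, lay just above the highest Ctrl library, Ctrl replicate 1 at 27.2 CPM. Of the genes that passed the filter in these cells, 6.60% were higher in all OIR libraries and 0.295% were called higher.

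Whether the change in OIR differed between Müller-like and rod-like cells was tested in 1 model of both types with the library as a block, for the 9 genes that passed its filter. None was called by edgeR, while 1.90% of the 13405 genes tested were. Of the 9, 1, Cp, had an unadjusted p under 0.05. For Nes the Müller-like change minus the rod-like change was -0.18 on the log2 scale (SE 0.44, edgeR adjusted p = 0.922), and for Vim it was -0.33 (SE 0.29, edgeR adjusted p = 0.707). A p over the threshold does not show that the changes were alike. Without replicate 1 of both groups the change was smaller in Müller-like cells for Vim, at -0.73, Cp, at -1.06, and Socs3, at -1.91, with edgeR adjusted p = 0.0109, 0.0219 and 0.0027. In that fit every OIR library read as male and every Ctrl library as female, so sex and treatment cannot be told apart. The share of all genes called was taken for the full model only.

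No further gene of the interleukin-6 family and its gp130 pathway was called in Müller-like cells by edgeR. Of 25 such genes 16 were tested, with a median log2 fold change of -0.09 against -0.01 over all genes. Of the 16, 5 had an unadjusted edgeR p under 0.05, 2 higher and 3 lower, as had 1807 of all 11631 genes. DESeq2 called 1 of the 16, and over all genes 227 higher and 192 lower. The ligand genes Il6 and Osm, named after their values were seen, had 0 UMIs in every Müller-like sum. Of 14 known STAT3 targets 11 were tested, and 1 was called: Bcl6, a transcriptional repressor, was at 19.9, 22.7 and 8.15 CPM in OIR and 41.4, 40.7 and 40.9 CPM in Ctrl, with a log2 fold change of -1.31 (SE 0.28, edgeR adjusted p = 0.0394). All OIR libraries lay below all Ctrl libraries, as for 6.96% of genes.

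Among 12 other filament and nuclear lamina genes, 6 were tested and 1 was called. This was Synm, for synemin, a filament protein that assembles with vimentin, at 28.1, 20.04 and 22.6 CPM in OIR and 10.6, 11.6 and 7.59 CPM in Ctrl. Its log2 fold change was 1.17 (SE 0.23, edgeR adjusted p = 0.0252). Of 12 genes reported for astrocytes in neuroinflammation 7 were tested, and H2-T23, a class I histocompatibility gene, was called, with 54.3, 31.95 and 33.2 CPM in OIR, 18.8, 15.1 and 10.5 CPM in Ctrl and a log2 fold change of 1.33 (SE 0.27, edgeR adjusted p = 0.0329). With a term for sex, which sets the OIR libraries against Ctrl replicate 1 alone, neither Synm, H2-T23 nor Bcl6 was called. Leaving out OIR replicate 1 or 3 or Ctrl replicate 2 or 3 ended the calls of Synm, at edgeR adjusted p = 0.0612 to 0.104, and of H2-T23, at 0.0523 to 0.107. Leaving out any library other than OIR replicate 3 ended that of Bcl6, at edgeR adjusted p = 0.0503 to 0.113.

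No gene was called by edgeR among the tested genes of the other 4 lists, 3 of 6 pan-reactive astrocyte genes, 3 of 12 astrocyte genes of ischemia, 4 of 8 metalloproteinase genes and their inhibitors, and 8 of 12 iron and acute phase genes. DESeq2 called none of them either, and 1, 2, 0 and 2 had an unadjusted p under 0.05 with edgeR, as had 1807 of all 11631 genes. Their median log2 fold changes were 0.0031, 0.15, 0.05 and 0.05.

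In other cell types the same lists gave a few calls. H2-T23 was called higher in cone bipolar-like and rod bipolar-like cells, with log2 fold changes of 2.25 and 2.56 (edgeR adjusted p = 0.0051 and 0.0021), where 0.487% and 1.28% of genes were called higher. The complement gene C3 was called higher in the same types, with 2.24 and 3.62 (edgeR adjusted p = 0.0057 and 0.0045). In rod-like cells Cebpb, a transcription factor of the acute phase response, was called higher with 1.70 (edgeR adjusted p = 0.0368). In rod bipolar-like cells the immediate early gene Fos was called lower with -2.17 (edgeR adjusted p = 0.0004), as 1.15% of genes were. The other calls were Cebpd and H2-D1 in rod bipolar-like cells, higher with 1.62 and 1.31, and Pim1, a kinase gene that STAT3 induces, in microglia-like cells, higher with 2.49 (edgeR adjusted p = 0.0300, 0.0134 and 0.0411).

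Across 55 sums of 1 library and 1 cell type with at least 10 cells, Gfap and Serpina3n were the most alike of the 10 genes (Pearson r = 0.90 of log2(CPM + 1)), followed by Cp and Vim (r = 0.80) and Nes and Vim (r = 0.73). Osmr and Socs3 were the least alike (r = 0.01). Of 17104 genes, the one most like Gfap was Vax1 (r = 0.95), which was also most like Serpina3n (r = 0.89). For Nes it was Tagln2 (r = 0.92), for Vim Ppic (r = 0.89), for Osmr Tmem98 (r = 0.92), for Cp Aif1l (r = 0.91), for Socs3 Akr1b10 (r = 0.91) and for Timp1 Lmcd1 (r = 0.85). Lcn2 and Stat3 had weaker matches, Mgst2 (r = 0.75) and Trim56 (r = 0.72). These values describe the cell types, since sums of 1 library share their depth and sums of 1 type share their cells.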

How the data were processed

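Retinas of OIR and Ctrl mice were dissociated, and cells were captured with 10x Chromium 3′ v3 chemistry. The deposited files hold raw UMI counts per gene and barcode for each of the 6 libraries. The authors made these counts with Cell Ranger (matrix header software 3.1.0, genome build mm10 per the labels). The matrices held 47631 barcodes, of which 254 barcode strings occurred in more than 1 library and were kept apart by library.

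Cells with 500 to 5000 genes and at most 20% mitochondrial UMIs were kept. They were joined by canonical correlation in Seurat 5.3.0, with the 10 genes left out of the 2000 variable genes, 15 principal components, 20 neighbours and resolution 0.5. Of 23 clusters, those of 11 types were named "-like" from marker genes, none of them among the 10 genes, and 752 cells stayed unnamed. Names may differ from those of the study. Doublets were kept. An alternative removed the cells with the highest Scrublet scores (scanpy 1.11.5), since Scrublet's own threshold marked almost none in 5 of the 6 libraries.

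UMIs were summed by library and type, for the 8 types with at least 10 cells in every library, and tested by quasi-likelihood in edgeR 4.0.16 under R 4.3.3, after filterByExpr and TMM scaling, with Benjamini-Hochberg adjustment over all genes of the type. DESeq2 1.42.0 was an alternative. Scripts were tested on simulated data. Shares were compared with a two-sided exact permutation test in SciPy 1.17.1. Intervals, limits for 0 UMIs and depth cover counting error only. No label states separate cultures or litters, and p-values measure the spread between pairs of mice.

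The 10 genes and all lists were chosen with earlier results of these data known. Named were all 10 genes in Müller-like cells, in other types those called or among the 2 highest types of a gene, and from the other lists the called genes with the lowest p, at most 4 a direction. Outside this rule, and with their values known, Socs3 in cone-like cells and Lcn2 in rod-like and amacrine-like cells were named too. So was Vim in cone bipolar-like, rod bipolar-like and microglia-like cells. Other genes are said to be chosen after their values were seen. For likeness, genes were ranked by Pearson r for members with at least 20 UMIs.

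GEO's labels number the replicates alike in both groups without saying what a number shares. The numbers were taken to pair the libraries where all 3 same-numbered pairs deviated together with r over 0.1 over genes. This held in rod-like cells (r = 0.480, 0.249 and 0.348) and in cone bipolar-like cells (r = 0.346, 0.140 and 0.193). In rod-like cells, however, OIR replicate 2 with Ctrl replicate 3 (r = 0.211) and OIR replicate 3 with Ctrl replicate 2 (r = 0.229) were nearly as alike. The numbers there set replicate 1 apart and did not clearly pair replicates 2 and 3.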

Additional observations from a re-analysis of the deposited data

How the results depend on the processing

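In Müller-like cells 1 of the 10 genes, Nes, was called higher. It was 3 with DESeq2 and 5 with no filter on low counts, fits that called 227 of 11631 and 390 of 18923 genes higher. It was 2 without the highest Scrublet scores, and 2 in either Müller-like cluster alone, where the use of single clusters was chosen after seeing the data. Over all genes, 221 of 11511 were called higher without these scores, 144 of 11188 in the deeper and 99 of 7576 in the shallower cluster. Leaving out 1 library gave 0 to 1, the 0 being without Ctrl replicate 3. In other types the 3 calls became 7 with no filter, 6 with replicates 2 and 3 alone and 1 with cells of at least 1000 UMIs. They did not hold with the term for sex. Without 1 library there were 0 to 8: 8 without Ctrl replicate 1, 1 without OIR replicate 2 or 3 and 0 without Ctrl replicate 2 or 3. Over all genes the calls rose too. In rod-like cells 184 of 11573 were called higher in the main fit, 1256 of 11686 with replicates 2 and 3 alone and 537 of 11859 without Ctrl replicate 1. In these last 2 fits every OIR library read as male and every Ctrl library as female. No gene was called lower under any alternative. The number of genes whose change differed between Müller-like and rod-like cells, 0, was 3 without replicate 1 and 0 without replicate 2 or 3. Without replicate 1, sex and treatment cannot be told apart.

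With the replicate number as a block, 4 genes were called in Müller-like cells, where the numbers did not pair the libraries (r = 0.235, -0.045 and 0.233), and 7 in other types. The 4 were Nes, Osmr, Gfap, at 1.32 (edgeR adjusted p = 0.0430), and Serpina3n, at 2.69 (edgeR adjusted p = 0.0150). Over all genes the block called 248 of 11631 higher in Müller-like cells and 631 of 11573 in rod-like cells. The sign turned with the term for sex for Stat3 (-0.10), Socs3 (-0.18) and Cp (-0.12), and for Socs3 in the shallower cluster (-0.53). Serpina3n could not be given a bounded change without Ctrl replicate 1, since the other Ctrl libraries held 0 UMIs. Among single genes, 277 of 360 values under an alternative kept their direction and their side of the threshold or moved by less than the replicate spread. Uncalled differences between Müller-like and rod-like cells counted as kept even where their sign turned. It did so under some alternative for Vim, Lcn2, Serpina3n and Stat3. The cause of these changes was not tested. Depth limits Lcn2, Timp1, Serpina3n, Gfap, Nes and Osmr, with under 20 UMIs in some Müller-like sums (for Nes and Osmr in Ctrl replicate 3, with 13 and 18), and the 57 astrocyte-like cells.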
